A study of Mus musculus with 6 samples.

Results

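Hhex and Prox1 are homeodomain transcription factors of the foregut territory from which the liver, the bile duct and gallbladder, and the pancreas arise. Both genes were taken by name, 2 of the 31028 genes in the RNA table, and both are also listed among the 8269 genes of each accessibility table. The study examined mouse embryos of the C57BL/6 strain that carried either 2 normal copies of Ptf1a (Ptf1a+/+, here wild type) or a homozygous deletion of a Ptf1a enhancer (Ptf1aenh-delta/enh-delta, here enhancer deleted). Dissected pancreatic tissue at embryonic day 10.5 (E10.5), labelled as multipotent pancreatic progenitors and pooled from 5 to 9 embryos per dataset, gave 1 single-cell RNA library and 1 single-nucleus accessibility (ATAC) library per genotype. Dissected pancreas at E13.5, pooled from 6 embryos per dataset, gave 1 ATAC library per genotype. No group has a second library, so no difference between genotypes carries a replicate check or a p-value, and each interval given in brackets is an exact or score interval at 95% that covers counting error only.

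Hhex is expressed in the anterior endoderm, is needed there for the liver bud and the ventral pancreas, and remains on in the biliary system and, later, in somatostatin-producing delta cells of the islet. Prox1 marks hepatoblasts and early pancreatic progenitors, stays on in the endocrine lineage, and is also the defining factor of lymphatic endothelium. Next to the Hhex-expressing hepatobiliary endoderm lies the endoderm that expresses Pdx1, a homeodomain factor needed for pancreas growth, and Ptf1a, a basic helix-loop-helix factor that fixes pancreatic over duodenal and biliary fate. Sox17, an HMG-box factor, marks the biliary side of this border.

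In the reference annotation (RefSeq, GRCm38.p6, the assembly called mm10 in the submitters' processing notes), Hhex lies on the forward strand of chromosome 19 from 37434841 to 37440731 and has 4 exons. Prox1 lies on the reverse strand of chromosome 1 from 190118035 to 190170827 and has 5 exons. The long noncoding gene Prox1os overlaps its 5′ end by 532 bases. The 250 bases before the first annotated start site of each gene are shown because they differ in composition and in the short core letters they hold. Capitals mark every match, on either strand, to 10 short motifs.
Hhex, chr19:37434591-37434840, forward strand: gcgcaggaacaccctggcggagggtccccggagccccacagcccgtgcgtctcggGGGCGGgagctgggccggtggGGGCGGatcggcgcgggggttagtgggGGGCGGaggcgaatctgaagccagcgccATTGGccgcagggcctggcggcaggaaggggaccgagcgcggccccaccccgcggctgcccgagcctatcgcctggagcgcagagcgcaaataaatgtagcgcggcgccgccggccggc
Prox1, chr1:190170828-190171077, reverse strand: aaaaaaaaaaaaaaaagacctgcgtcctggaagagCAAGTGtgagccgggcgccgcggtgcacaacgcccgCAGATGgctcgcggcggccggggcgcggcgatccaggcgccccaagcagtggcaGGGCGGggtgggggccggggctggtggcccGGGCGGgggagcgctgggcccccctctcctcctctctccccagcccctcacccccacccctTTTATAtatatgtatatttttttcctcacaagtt
The Hhex stretch was 76% G or C and held 32 CpG dinucleotides. The Prox1 stretch was 64.8% G or C and held 20. The median over all 32851 promoter windows of that length was 52.4%, and 3.33% of them were at or above the Hhex value. Hhex held the GC box letters GGGCGG 3 times, 195, 174 and 147 bases before the start site, and the CCAAT letters once, 119 bases before it on the strand opposite to the one shown. Prox1 held GGGCGG 2 times, 125 and 95 bases before its start site, the E-box letters CANNTG 2 times, 215 and 179 bases before it, and TATAAA once, 34 bases before it on the strand opposite to the one shown. No matches overlapped. Of all windows, 32.7% held GGGCGG, 33.9% CCAAT, 66.2% CANNTG and 12.4% TATAAA. The other 6 motifs were an RBPJ core (TGGGAA, in 21.6% of windows), a GATA core (GATAA, 22.6%), a Onecut core (ATTGAT, 6.72%), a Foxa core (TGTTTAC, 3.17%), a homeodomain core (TAATTA, 4.84%) and a Sox core (ATTGTT, 9.42%). None of these 6 sets of letters was in either window shown. The Prox1 window lies inside the Prox1os gene. A second annotated start site of Prox1 is not shown. The 250 bases before it did hold the RBPJ core letters TGGGAA once, 240 bases before that site. They also held GGGCGG once, 58 bases before it.

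The RNA table held 1104 barcodes of the wild type and 815 of the enhancer-deleted library, of which 451 and 369 with at least 1000 detected genes were kept. Kept cells had a median of 6700 UMIs (unique molecular identifiers, a count of captured RNA molecules) in the wild type and 9856 in the enhancer-deleted library, and 1 barcode occurred in both. The targeted gene follows the labels: Ptf1a had 142 UMIs in 88 wild-type cells and 0 UMIs in the enhancer-deleted cells, where the interval reached up to 0.92 CPM. CPM is the UMI count scaled to one common total, and every level below is on that scale. Cells were clustered without Hhex, Prox1, Pdx1, Ptf1a and the acinar genes, and a cluster was named only from marker lists. This gave 2 pancreatic progenitor-like clusters. Cluster 3, led by Spp1, Nkx6-2, Nepn and Spon1, held 57 wild-type and 34 enhancer-deleted cells. Cluster 5, led by P2rx1, Rhov, Nepn and Chst2, held 50 wild-type cells and 2 enhancer-deleted cells, too few for a level. Cluster 6, hepatobiliary-like and led by Sox17, Itih2 and Paqr9, held 16 and 36. Clusters 2 and 7 were endocrine-like (52 and 98, 13 and 30 cells) and clusters 1 and 4 mesenchyme-like (93 and 71, 28 and 46 cells). Cluster 0 (142 and 52 cells) was shallow, led by Gm42418, AY036118, histone genes and Sox17, and stayed unnamed. Cluster 4 also held much endocrine RNA: 13 of 17 endocrine markers were raised in it, they summed to 27550 and 19546 CPM, and it had 5 of the 10 doublet calls. Cluster 1 had 9 of 10 endothelial, 6 of 9 blood and 12 of 22 hepatobiliary markers raised. So the libraries, labelled as progenitors, also held mesenchyme-like and endocrine-like cells. The names were rebuilt here and are not the authors' own.

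Hhex RNA was highest on the hepatobiliary side of the border, lower in the progenitor clusters and near the floor in endocrine cells. In the wild type, cluster 6 held 40 Hhex UMIs, or 177 CPM (127 to 242), with a UMI in 11 of 16 cells. Progenitor cluster 3 held 44 UMIs, or 49.5 CPM (36.0 to 66.5), with a UMI in 23 of 57 cells. Progenitor cluster 5 held 21 UMIs, or 38.9 CPM (24.1 to 59.4). In the wild type the hepatobiliary level therefore stood above both progenitor clusters with no overlap of intervals, while the 2 progenitor clusters and mesenchyme-like cluster 1 (37.7 CPM, 24.8 to 54.8) could not be told apart. The unnamed cluster 0 was at 76.6 CPM (54.5 to 105), overlapping clusters 3, 5 and 1. Endocrine-like clusters 2 and 7 held 1 Hhex UMI each, and the deep mesenchyme-like cluster 4 held 0 UMIs in 28 cells, with an interval up to 7.003 CPM.

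The same order held in the enhancer-deleted library at higher levels. Cluster 6 held 191 Hhex UMIs, or 349 CPM (302 to 403), with a UMI in 33 of 36 cells and up to 19 UMIs in 1 cell. Cluster 0 was at 223 CPM (154 to 311), progenitor cluster 3 at 151 (122 to 186) and mesenchyme-like cluster 1 at 89.9 (66.5 to 119). Neighbours in that order overlapped, except that cluster 1 lay below cluster 3. Endocrine-like clusters 2 and 7 were at 7.62 and 7.68 CPM and cluster 4 at 8.26, all below cluster 1. The endocrine-like class serves as the background for shares of cells: 2 of 65 wild-type and 6 of 128 enhancer-deleted endocrine-like cells had a Hhex UMI (3.08% and 4.69%), at median depths of 10895 and 9856 UMIs.

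In the enhancer-deleted library Hhex was higher than in the wild type in the progenitor cluster, in the hepatobiliary cluster and over all kept cells. In progenitor cluster 3 the median cell had 0 Hhex UMIs in the wild type (lowest 0, highest 7) and 2.5 in the enhancer-deleted library (lowest 0, highest 11). Single cells of the 2 genotypes overlapped, and 4 of 57 wild-type against 17 of 34 enhancer-deleted cells had 3 or more Hhex UMIs. These per-cell counts are not scaled for depth, and median depths in cluster 3 were 14998 and 18169 UMIs. The ratio of summed levels was 3.06 (2.11 to 4.48), a log2 ratio of 1.44 on the log2(CPM + 10) scale used for every log2 RNA value here. This placed Hhex 26th from the top of 4791 genes with at least 50 UMIs in the cluster, of which 2.02% were at least 2-fold higher and 1.06% at least 2-fold lower in the enhancer-deleted cells. With cells thinned to 2000 UMIs each the log2 ratio was 0.69, from 10 UMIs in each library. For both progenitor clusters as 1 set, a choice made after the clusters were seen, the levels were 45.5 and 151 CPM and the ratio 3.31 (2.38 to 4.62). Wild-type cells split over clusters 3 and 5 while enhancer-deleted cells were nearly all in cluster 3.

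In hepatobiliary cluster 6 the median cell had 2 Hhex UMIs in the wild type and 5 in the enhancer-deleted library, with highest values of 8 and 19. Median depths there were 13500 and 15106 UMIs. The ratio of summed levels was 1.97 (1.39 to 2.84) and the log2 ratio 0.94, 67th from the top of 2605 genes. There 2.11% of genes were at least 2-fold higher and 0.307% at least 2-fold lower, and Hhex was just short of 2-fold. With cells of at least 2000 detected genes alone, which redrew the cluster, its log2 ratio was 0.45. Sox17 in the same cluster was nearly level, at 169 and 183 CPM (ratio 1.09, 0.74 to 1.62). Over all kept cells, free of any clustering, Hhex had 173 and 383 UMIs, or 42.1 (36.1 to 48.9) and 95.5 CPM (86.2 to 106), a ratio of 2.27 (1.89 to 2.73). It was 34th from the top of 10367 genes by its log2 ratio of 1.02, among the 0.357% at least 2-fold higher, beside 0.27% at least 2-fold lower. The median log2 ratio of all genes was 0.13 over all kept cells, 0.14 in cluster 3 and 0.08 in cluster 6, and scaling by the median of ratios in place of the total shifted all log2 ratios by about 0.18, 0.15 and 0.08. Thinned to 2000 UMIs per cell, Hhex over all cells had 46 and 61 UMIs and a log2 ratio of 0.59. A sum over all cells does not tell more Hhex per cell from more cells with Hhex.

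Hhex was also higher in cells outside the epithelium named here. The ratio was 2.39 (1.46 to 3.97) in mesenchyme-like cluster 1 and 2.91 (1.78 to 4.73) in cluster 0. Both clusters were shallow, with medians of 3914 and 4210 UMIs in cluster 1 and 3249 and 2282 in cluster 0, and both held Pdx1 and Sox17 UMIs. In cluster 1 the 22 hepatobiliary markers summed to 1301 (1219 to 1387) and 1817 CPM (1705 to 1934), and the 10 endothelial markers, all detected in both genotypes, to 179 (149 to 213) and 191 (156 to 231). Its 9 blood markers, with 9 and 7 detected, summed to 48.9 (34.0 to 67.95) and 53.2 CPM (35.6 to 76.4). In cluster 0 the hepatobiliary markers summed to 868 (789 to 953) and 845 CPM (705 to 1004). Its 10 endothelial markers summed to 62.8 (43.0 to 88.7) and 78.6 CPM (40.6 to 137), with 8 and 4 of them detected. Of these, Cdh5 and Pecam1 were at 0 in both genotypes. The part of these other cell types in the Hhex ratios was not tested. Sox17 went from 60.9 to 131 CPM in cluster 0 and from 26.5 to 5.51 in cluster 1. At a finer clustering (resolution 0.8), cells led by Sox17, Ifitm3 and Ube2c had Hhex at 101 CPM (70.1 to 141) in 75 wild-type cells and 395 (272 to 555) in 19 enhancer-deleted cells.

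Prox1 RNA was spread over nearly every class. In the wild type, endocrine-like cluster 2 was at 202 CPM (165 to 245), progenitor cluster 3 at 176 (149 to 205), mesenchyme-like cluster 4 at 158 (126 to 195), progenitor cluster 5 at 148 (117 to 184), mesenchyme-like cluster 1 at 130 (105 to 159) and endocrine-like cluster 7 at 110 (68.4 to 169). Each of these overlapped its neighbours. Hepatobiliary cluster 6, at 79.9 (47.3 to 126), was lower than progenitor cluster 3 with no overlap, the reverse of the Hhex order, and cluster 0 was lowest at 53.0 (34.9 to 77.1). The share of cells with a Prox1 UMI was 82.5% in cluster 3, 73.1% in cluster 2 and 89.3% in cluster 4, whose cells were the deepest at a median of 21178 UMIs. Cluster 4 also held much endocrine RNA, with wild-type Gcg (the glucagon gene) at 16915 CPM against 14721 in cluster 2. Its Prox1 therefore cannot be assigned to mesenchyme. No named class lacked Prox1, so its share of cells has no background class.

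In the enhancer-deleted library Prox1 was lower than in the wild type in the progenitor cluster and showed no clear difference on the hepatobiliary side. Cluster 3 held 156 Prox1 UMIs in the wild type, a median of 2 per cell and a highest of 9, and 64 in the enhancer-deleted library, a median of 2 and a highest of 7. The summed level was 176 against 105 CPM (81.1 to 135), a ratio of 0.60 (0.44 to 0.81) and a log2 ratio of -0.69, 175th from the bottom of 4791 genes. In cluster 6 Prox1 was at 79.9 and 98.8 CPM (74.2 to 129), with 18 and 54 UMIs, a ratio of 1.24 whose interval of 0.71 to 2.24 covers both directions. Over all kept cells the levels were 142 (130 to 154) and 117 (107 to 128), a ratio of 0.83 (0.73 to 0.93). Prox1 was thus lower by less than 2-fold in cluster 3 and over all cells. Thinned to 2000 UMIs per cell, cluster 3 held 26 and 4 Prox1 UMIs and the log2 ratio was -1.79.

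Among the other classes Prox1 was lower in mesenchyme-like clusters 1 (130 and 60.6 CPM, ratio 0.47, 0.30 to 0.70) and 4 (158 and 112, ratio 0.71, 0.52 to 0.97). In cluster 4 the endocrine markers were lower as well (27550 and 19546 CPM, all 17 detected in both), with Gcg, the glucagon gene, at 16915 and 10928 CPM. In cluster 1 the endocrine markers summed to 639 (582 to 701) and 576 CPM (514 to 644). The part of endocrine and endothelial RNA in these Prox1 values was not tested. The endocrine-like clusters together were at 177 (147 to 211) and 165 (144 to 189), a ratio of 0.93 (0.74 to 1.17). Within them, at the finer resolution, the cluster led by Neurog3, the gene that starts endocrine commitment, had the highest Prox1 level of any cluster with at least 12 cells of a genotype, 428 CPM (314 to 569) in 12 wild-type cells and 257 (203 to 321) in 38 enhancer-deleted cells. Among all kept cells, 32 of 35 wild-type and 45 of 54 enhancer-deleted cells with a Neurog3 UMI also had a Prox1 UMI (91.4% and 83.3%), against 44.7% and 47.0% of the other cells. Median depths were 12241 and 6127 UMIs with and without Neurog3 in the wild type, and 9550 and 9967 in the enhancer-deleted library. Thinned to 2000 UMIs the shares were 5 of 11 with Neurog3 (45.5%, 16.7 to 76.6) and 22.2% without in the wild type, and 7 of 23 (30.4%, 13.2 to 52.9) and 16.9% in the enhancer-deleted library. The overlapping noncoding gene Prox1os had 51 and 64 UMIs over all kept cells, a ratio of 1.29 (0.88 to 1.89). Strand use in the authors' counting was not given in the sources used here, so reads of the 2 overlapping genes may not be separable.

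**Figure D1:**
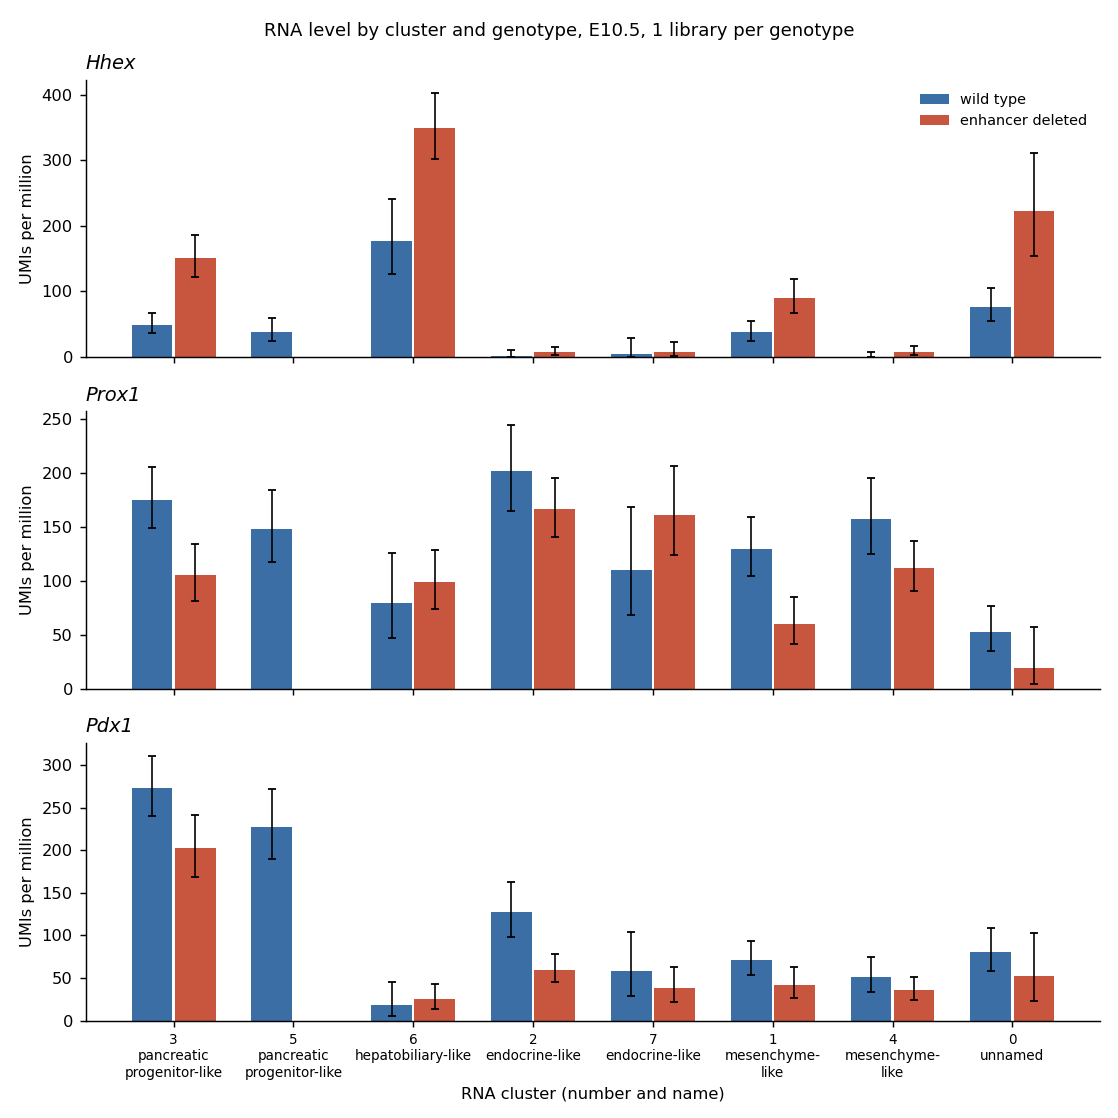
CPM of Hhex, Prox1 and Pdx1 (vertical axes, linear from 0) in each E10.5 RNA cluster (horizontal axis) for the wild type (blue) and the enhancer-deleted library (red), with exact 95% Poisson intervals as bars; the 2 enhancer-deleted cells of cluster 5 are not drawn. Hhex is highest in cluster 6 (177 and 349) and near 0 in the endocrine-like clusters, whereas Prox1 is lower in cluster 6 than in wild-type cluster 3.

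**Figure D2:**
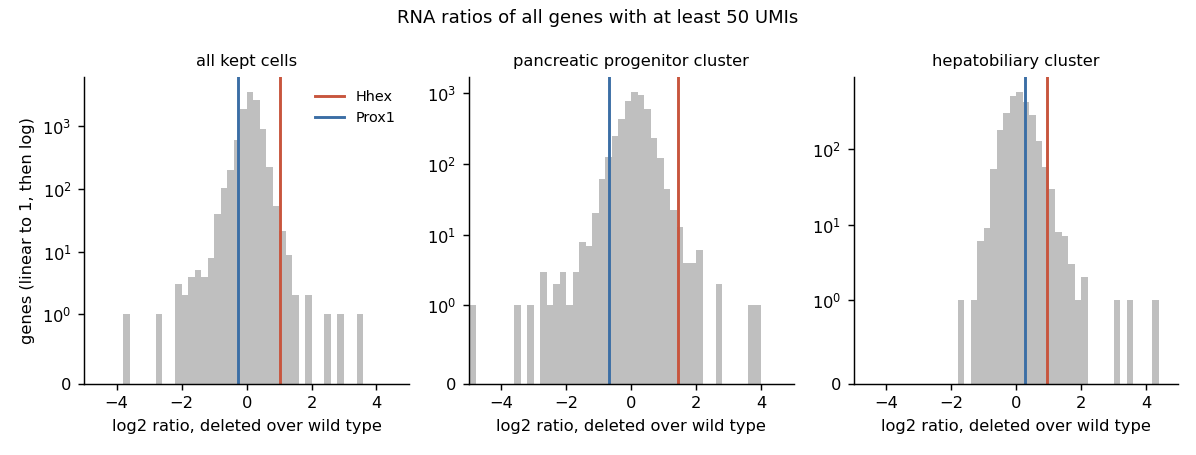
Number of genes (vertical axis, linear to 1 and logarithmic above) by log2 ratio of enhancer deleted over wild type (horizontal axis) for genes with at least 50 UMIs in all kept cells, in progenitor cluster 3 and in hepatobiliary cluster 6. The Hhex line (red) stands at 1.02, 1.44 and 0.94, in the upper tail, and the Prox1 line (blue) at -0.26, -0.69 and 0.28.

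Co-detection with Pdx1 was counted per cell, a cell being positive with 1 or more UMIs. In progenitor cluster 3, 20 of 52 wild-type Pdx1-positive cells (38.5%, 25.3 to 53.0) had a Hhex UMI, against 25 of 28 in the enhancer-deleted library (89.3%, 71.8 to 97.7). The difference was 50.8 percentage points (29.5 to 64.7). Over all kept cells the shares were 45 of 180 (25.0%) and 48 of 109 (44.0%), a difference of 19.0 points (7.79 to 30.03). In endocrine-like cells the shares were 1 of 27 (3.70%) and 4 of 42 (9.52%), a difference of 5.82 points (-9.86 to 18.7). The mesenchyme-like clusters together had shares of 17.2% and 38.5%, a difference of 21.2 points (-2.37 to 42.5). The unnamed cluster had 18.5% and 50%, a difference of 31.5 points (-4.66 to 64.4). These 2 differences were larger than that over all kept cells, but their intervals cover both directions. With cells thinned to 5000 UMIs the mesenchyme-like difference was -5.95 points (-32.5 to 23.0). Prox1 was found in 46 of 52 wild-type and 22 of 28 enhancer-deleted Pdx1-positive cells of cluster 3 (88.5% and 78.6%, a difference of -9.89 points, -29.0 to 6.13). Over all kept cells its shares were 72.2% and 62.4% (-9.84 points, -21.0 to 1.17).

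Pdx1-positive cells were deeper than the rest, with medians of 12635 against 3708 UMIs in the wild type and 14162 against 8107 in the enhancer-deleted library, so the counts were repeated with each cell thinned to a fixed number of UMIs. At 5000 UMIs, which left out 8 wild-type and 3 enhancer-deleted cells of the 2 progenitor clusters, 12 of 65 wild-type and 10 of 19 enhancer-deleted Pdx1-positive cells there had a Hhex UMI (18.5% and 52.6%, a difference of 34.2 points, 10.5 to 55.6). In cells of the same clusters without a Pdx1 UMI at that depth the shares were 20.6% and 50%, close to those with one. Unthinned, the Pdx1-positive cells gave 31 of 93 and 25 of 29 (33.3% and 86.2%), at median depths of 13426 UMIs in the wild type and 18780 in the enhancer-deleted library. At 5000 UMIs the Prox1 shares there were 49.2% and 42.1% (-7.13 points, -29.5 to 17.5). At 2000 UMIs the Hhex shares in these clusters were 6 of 41 and 5 of 15 (14.6% and 33.3%), a difference of 18.7 points whose interval of -4.11 to 44.8 includes 0. In cluster 3 alone the difference was 27.6 points (1.25 to 50.6) at 5000 UMIs and 18.5 points (-6.81 to 45.01) at 2000. Over all kept cells, where 188 and 104 cells were left out, the Hhex difference was 6.91 points (-5.79 to 21.0) at 5000 UMIs and 11.7 points (-1.54 to 28.2) at 2000, intervals that include 0.

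At equal depth, wild-type cells with more Pdx1 UMIs had no more Hhex. Over the progenitor and hepatobiliary clusters thinned to 5000 UMIs, wild-type cells with 0, 1 and 2 to 3 Pdx1 UMIs held 0.46 (0.28 to 0.70), 0.36 (0.19 to 0.64) and 0.14 (0.04 to 0.35) Hhex UMIs per cell, in 46, 33 and 29 cells, and neighbouring intervals overlap. Cluster 6 cells, rich in Hhex and poor in Pdx1, fall mainly among those with 0. The 4 wild-type cells with 4 or more Pdx1 UMIs held 0 Hhex UMIs, which allows up to 0.92 per cell. The enhancer-deleted cells held 1.35 (1.03 to 1.73), 0.54 (0.22 to 1.11) and 1.50 (0.78 to 2.62) in 46, 13 and 8 cells, with no single direction. Prox1 went from 0.80 (0.57 to 1.11) to 0.48 (0.26 to 0.81) per cell between 0 and 2 to 3 Pdx1 UMIs in the wild type, and from 0.43 to 0.38 in the enhancer-deleted library. Cells with UMIs of all 3 genes were 18 of 57 wild-type (31.6%, 19.9 to 45.2) and 19 of 34 enhancer-deleted cells of cluster 3 (55.9%, 37.9 to 72.8).

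Hepatobiliary cells seldom had Pdx1. In cluster 6 a Pdx1 UMI was in 4 of 16 wild-type and 6 of 36 enhancer-deleted cells, and 3 and 6 of those had a Hhex UMI. Hhex was at 179 and 321 CPM in these few cells and at 177 and 356 in the others, with intervals that overlap within each genotype. Cells with a Sox17 UMI had more Hhex than the rest: over all kept cells they were at 171 (132 to 219) and 342 CPM (292 to 398), in 33 and 35 cells, against 29.2 (24.0 to 35.2) and 61.8 (53.8 to 70.5) in cells without one. Prox1 went the other way in the wild type, at 83.0 (56.4 to 118) in cells with a Sox17 UMI and 147 (135 to 160) in cells without. Progenitor cluster 3 itself had 2 Sox17 UMIs in the wild type and 0 in the enhancer-deleted library, so nearly all of its Hhex came from cells without detected Sox17. In the wild-type progenitor clusters, the 62 cells with a Ptf1a UMI had Hhex at 36.6 CPM (25.3 to 51.1) and the 45 cells without one at 62.03 (42.2 to 88.1), intervals that overlap. Both stood below the 151 CPM of the enhancer-deleted cells. Prox1 was at 166 and 164 CPM in those 62 and 45 cells.

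**Figure D3:**
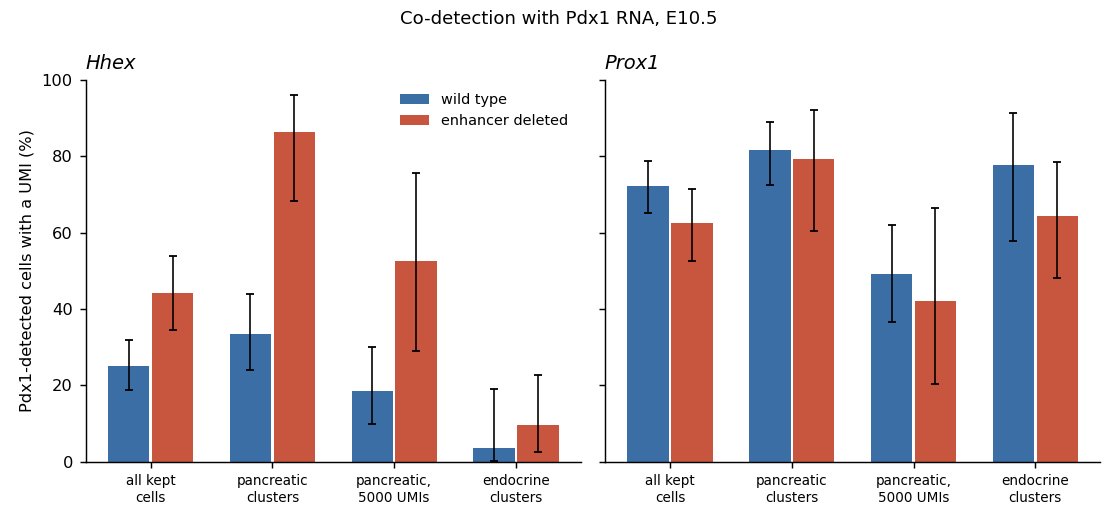
Percent of Pdx1-positive cells with a Hhex (left) or Prox1 (right) UMI (vertical axis, 0 to 100) in all kept cells, the progenitor clusters, the progenitor clusters thinned to 5000 UMIs per cell and the endocrine-like clusters (horizontal axis), for the wild type (blue) and the enhancer-deleted library (red), with exact 95% binomial intervals. In the progenitor clusters Hhex is at 33.3% and 86.2% unthinned and at 18.5% and 52.6% thinned, while the Prox1 intervals overlap in each set.

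**Figure D4:**
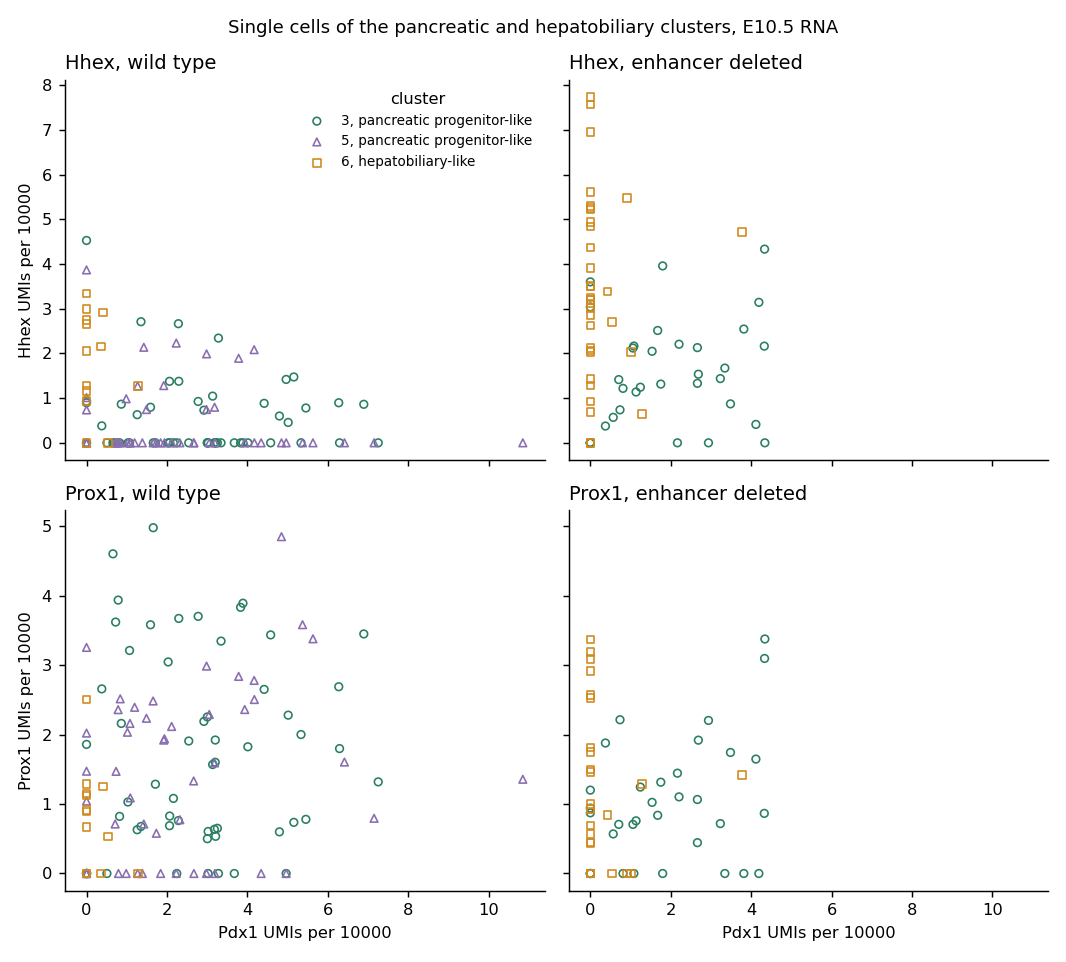
Hhex (top) and Prox1 (bottom) UMIs per 10000 (vertical axes) against Pdx1 UMIs per 10000 (horizontal axis) in single cells of at least 2000 UMIs from clusters 3 (circles), 5 (triangles) and 6 (squares), wild type on the left and enhancer deleted on the right. Most cluster 6 cells lie at 0 on the Pdx1 axis, and cluster 3 cells with both Pdx1 and Hhex are more frequent on the right.

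The other transcription factors and products of the border were read from lists chosen with earlier results of these data known. In progenitor cluster 3, of 15 liver-side factors 9 had enough UMIs, 4 of these were at least 2-fold higher in the enhancer-deleted cells and 0 lower, and their median log2 ratio was 0.60. The 4 were Onecut2 (log2 ratio 2.09), a cut-domain factor shared by liver and pancreas, the pioneer factors Foxa1 (1.59) and Foxa3 (1.01), and Gata4 (1.21). Onecut1 was at -0.32 and Nr5a2, the lowest, at -0.41. Gata4 and Nr5a2 are also on the pancreatic progenitor and acinar marker lists. Of 12 pancreas-side factors 8 had enough UMIs, with 1 higher (Nkx6-2, 1.09), 3 lower and a median of -0.43. The 3 lower were Ptf1a, with 66 UMIs in the wild type and 0 in the other library, and the homeodomain factors Nkx6-1 (-1.58) and Nkx2-2 (-1.41). Pdx1 itself went from 274 (240 to 310) to 202 CPM (168 to 242), a ratio of 0.74 (0.59 to 0.92). Of 22 hepatobiliary genes 10 had enough UMIs, with 6 higher, 1 lower and a median of 1.11. The 6 were Onecut2, which is on both lists, the apolipoprotein Apom (1.66), Spp1 (1.44), which encodes osteopontin, the keratin Krt19 (1.26), Itih2 (1.22) and the fibrinogen chain Fgb (1.01). The 1 lower was Vtn (-1.39), which encodes vitronectin. Spp1 and Krt19 are also on a list of 13 pancreatic trunk and duct genes. Of these 13, 11 had enough UMIs, with 4 higher, 1 lower and a median of 0.33. The 13 genes summed to 3159 and 5096 CPM. These counts stand beside the 2.02% and 1.06% of all genes given above. Spp1 and Onecut2 were among the genes that led the cluster.

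In hepatobiliary cluster 6 the same lists held 2 genes that differed by at least 2-fold. Of 5 liver-side factors with enough UMIs, 0 were at least 2-fold higher or lower, from Onecut2 at 0.97 to Onecut1 at -0.58. Of 3 pancreas-side factors, Sox9 was at least 2-fold lower (-1.04, 315 and 148 CPM). Of 9 hepatobiliary genes, Apoa2 was at least 2-fold higher (1.06, 71.0 and 159 CPM), and the median was 0.26. Onecut1 and Onecut2 are on both the liver-side and the hepatobiliary list. Over all genes tested in this cluster, 2.11% were at least 2-fold higher and 0.307% at least 2-fold lower. The fetal liver product Afp was at 608 and 730 CPM. Alb, the main plasma protein of hepatocytes, was at 13.3 and 32.9 CPM, Apob was at 0 UMIs and 1 UMI, and Ahsg was at 0 in both.

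Markers of other classes also differed between genotypes in the cells on which the Hhex values rest. In cluster 3 the 17 endocrine markers summed to 215 CPM (186 to 248) in the wild type and 1060 in the enhancer-deleted library, with 13 of 17 detected in each and Ins1, Ins2, Sst and Pax4 at 0 in both. The 2 with enough UMIs were Chgb (log2 ratio 3.75) and Pyy (2.71). The 22 hepatobiliary markers summed to 1262 and 2397 CPM, with Sox17 at 2 UMIs and 0, and Ahsg at 0 in the enhancer-deleted cells. Onecut2 (217 and 956 CPM) and Spp1 (162 and 457 CPM) made up most of this net rise, while Vtn was lower (339 and 123 CPM). The 10 endothelial markers summed to 39.4 and 51.0 CPM, with 8 and 3 of 10 detected and the vessel genes Cdh5 and Pecam1 at 0 in the enhancer-deleted cells. In cluster 6 the endocrine markers summed to 88.7 and 155 CPM and the endothelial markers to 88.7 and 113 (2 and 5 of 10 detected), with Cdh5 and the lymphatic marker Lyve1 at 0 in both. The part of endocrine and hepatobiliary RNA in the Hhex and Prox1 differences was not tested. Endocrine-like clusters held Hhex at no more than 7.68 CPM, and endocrine-like cluster 2 held Prox1 at 202 and 167 CPM. Hepatobiliary cluster 6 held Hhex at 177 and 349 CPM.

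By their pattern over 14 sums of at least 15 cells from 1 cluster and genotype, and over 6006 genes, the genes most like Hhex were Bex4 (Pearson r 0.93), Fkbp4 (0.92), Galk1, Dpp3 and Svbp (0.91 each). Among those most like Prox1 were Srpr (0.92), Gcc2, Ankrd12 and Tspan13 (0.91 each). Hhex and Prox1 correlated with each other at -0.68 and Hhex with Sox17 at 0.75. The sums share 2 libraries and differ in depth, and these values describe the clusters only.

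Accessibility was deposited as a gene signal that sums to 10000 per nucleus over the 8269 genes, with no counts behind it, so means carry no interval. At E10.5 there were 838 wild-type and 700 enhancer-deleted nuclei, with medians of 4846 and 5181 genes above 0 and no shared barcode. Over all of them Hhex averaged 2.13 ± 3.45 (SD over nuclei) and 1.94 ± 3.17, and it was above 0 in 65.2% (61.8 to 68.4) and 69.0% (65.4 to 72.4). Prox1 averaged 2.14 ± 2.26 and 1.97 ± 2.04 and was above 0 in 78.8% and 80.9%. The Hhex log2 ratio was -0.14, with 17.1% of 8219 genes at or below it, and the Prox1 ratio -0.12, with 20.7% at or below. Ptf1a signal, by comparison, averaged 2.43 and 1.70.

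By cluster, E10.5 Hhex signal was lowest in endocrine-like nuclei of the wild type, and genotypes differed most in the shallow cluster 1. Cluster 0 (561 and 497 nuclei), which met no rule for a name, had Hhex at 2.05 and 2.16 and Prox1 at 2.12 and 1.98. Endocrine-like cluster 2 (60 and 64 nuclei) had less Hhex, 1.52 and 1.51, and more Prox1, 3.09 and 2.25. Shallow cluster 1 (217 and 139 nuclei, with medians of 1783 and 1864 genes above 0) had Hhex at 2.51 and 1.35 and Prox1 at 1.94 and 1.82. In cluster 0 alone, a comparison chosen after seeing the clusters, the Hhex log2 ratio was 0.07. No hepatobiliary cluster separated at E10.5, and Sox17 signal was 1.41 and 1.07 over all nuclei.

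At E13.5 there were 2314 wild-type and 602 enhancer-deleted nuclei, with 2 shared barcodes. The barcode names of the 2 libraries carry different months, and month cannot be told apart from genotype. Red-cell-like cluster 3 held 140 and 272 nuclei, 6.05% and 45.2% of their libraries, and its signal was low, 0.49 and 0.51 for Hhex and 0.39 and 0.26 for Prox1. Over all nuclei Hhex averaged 2.18 and 1.39 and Prox1 2.50 and 1.22. Without cluster 3 the means were 2.29 and 2.12 for Hhex and 2.63 and 2.00 for Prox1. Without it the log2 ratio went from -0.65 to -0.11 for Hhex and from -1.04 to -0.40 for Prox1. Cluster 1, shallow and unnamed, also differed in share, with 676 and 43 nuclei, 29.2% and 7.14% of their libraries. It had medians of 1749 and 1229 genes above 0 and log2 ratios of -0.72 for Hhex and -0.575 for Prox1.

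In main epithelial cluster 0 of E13.5 (1127 and 239 nuclei), which was named trunk/duct-like by its markers and also led by the acinar regulator Rbpjl, Hhex averaged 2.73 ± 3.21 and 2.44 ± 2.64. It was above 0 in 71.5% (68.8 to 74.1) of wild-type and 77.4% (71.6 to 82.6) of enhancer-deleted nuclei. The log2 ratio was -0.16, with 20.7% of 8230 genes at or below. Prox1 averaged 2.55 ± 2.46 and 2.06 ± 1.90, a log2 ratio of -0.31 with 6.44% at or below. Endocrine-like cluster 2 (371 and 48 nuclei) had Hhex at 1.40 and 1.28 and Prox1 at 2.78 and 1.91, so at both stages the endocrine-like cluster had less Hhex signal than cluster 0 of its stage in both genotypes. Prox1 was lower in the enhancer-deleted library in all 7 clusters of the 2 stages, and Hhex in 5 of them, in 1 by only 0.005 on the log2 scale. Of all genes, 46.3% to 53.3% were higher, depending on the cluster. At or below the Prox1 ratio were 23.6%, 41.5% and 10.2% of genes in E10.5 clusters 0, 1 and 2. The E13.5 shares were 6.44%, 25.1%, 8.06% and 2.54% in clusters 0, 1, 2 and 3. Clusters of 1 stage come from the same 2 libraries, so they are not replicates. The 2 stages were scaled in separate tables, and levels are set side by side across them without a test.

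In the same E13.5 cluster 0, 6 of 10 liver-side factors had a higher and 4 a lower signal in the enhancer-deleted library, with a median log2 ratio of 0.39 and Onecut2 highest at 1.72. Of 10 pancreas-side factors 2 were higher and 8 lower, with a median of -0.30 and Ptf1a lowest at -1.25. Of 19 hepatobiliary genes 13 were higher, with a median of 0.18. Of all genes 49.2% were higher. At E10.5, in cluster 0, the 3 medians were 0.07, 0.04 and -0.06. Of the 3 nearest protein-coding genes on each side, the tables list Ide and Kif11 beside Hhex and Cenpf, Smyd2, Angel2 and Vash2 beside Prox1. Their log2 ratios in E13.5 cluster 0 ran from -0.29 (Smyd2) to 0.33 (Angel2), a range that includes the Hhex value, while the Prox1 value of -0.31 lay just below it.

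Hhex signal was counted among nuclei with Pdx1 signal. In E10.5 cluster 0, 364 of 450 wild-type and 350 of 417 enhancer-deleted nuclei with Pdx1 signal also had Hhex signal (80.9%, 76.9 to 84.4, and 83.9%, 80.1 to 87.3). For Prox1 the shares were 92.9% and 92.1%. In E13.5 cluster 0 the Hhex shares were 74.0% (70.6 to 77.1) and 81.8% (75.6 to 87.0), at median genes above 0 of 4542 and 6243. In the shallowest of 3 equal groups of E10.5 nuclei by genes above 0, the Hhex shares with and without Pdx1 signal were 62.8% and 62.2% in the wild type and 63.3% and 63.4% in the enhancer-deleted library. In 3 such groups the Hhex shares of E13.5 nuclei with Pdx1 signal were 57.8%, 72.5% and 90.1% in the wild type and 41.2%, 76.7% and 87.6% in the enhancer-deleted library, in 17 to 273 nuclei. The shares were higher at greater depth in each genotype, and at matched depth the enhancer-deleted share was the higher in 1 of 3 groups at E13.5. At E10.5 it was the higher in 3 of 3 groups, by small margins (62.8% and 63.3%, 81.7% and 83.6%, 94.9% and 97.1%).

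**Figure D5:**
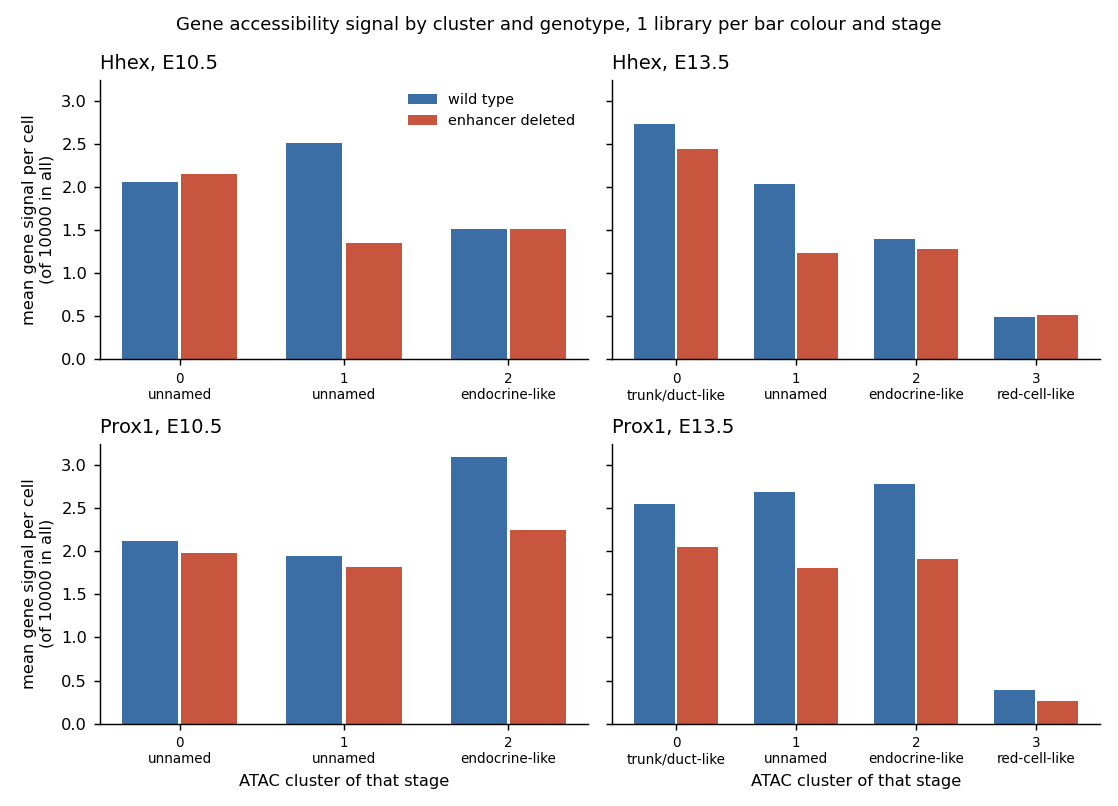
Mean gene signal per nucleus (vertical axes, of 10000 over all listed genes, linear from 0) for Hhex (top) and Prox1 (bottom) in each ATAC cluster of E10.5 (left) and E13.5 (right), wild type in blue and enhancer deleted in red, with 1 library per genotype and stage. The red-cell-like cluster is lowest for both genes, and the endocrine-like clusters are lower in Hhex than cluster 0 of their stage.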

How the data were processed

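Droplet single-cell RNA and ATAC libraries were made with 10x Genomics kits, per the labels' protocols. The authors deposited raw UMI counts per gene and cell for RNA. For ATAC they deposited a gene-level signal that sums to 10000 per nucleus. The genome build mm10 comes from the submitters' processing notes, with aligner, peak handling and cell filter not given in the sources used here.

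Of the RNA barcodes, those with 1000 or more genes detected were retained and clustered with scanpy 1.11.5 and leidenalg 0.10.2 (2000 variable genes, 30 principal components, 15 neighbours, resolution 0.5 for RNA and 0.3 for ATAC, seed 0), leaving out 21 genes: the members, Pdx1, Ptf1a and the acinar list. A cluster was named from a marker list with a mean log2 ratio of at least 0.3, at least 3 raised markers, at least 1 of them among its 10 leading genes, and no list with more there. Doublets were called with scrublet (2 wild-type and 8 enhancer-deleted cells) and kept, apart from an alternative. UMIs were summed per cluster and library. Sums have exact Poisson intervals, shares exact Clopper-Pearson intervals, ratios exact conditional intervals and differences of shares Newcombe intervals, all at 95% (scipy 1.17.1). Ranks took genes whose UMIs in the compared cells of both genotypes summed to 50 or more, with a pseudocount of 10 CPM, and a gene counted as higher or lower at 2-fold. ATAC ranks used genes above 0 in at least 10% of nuclei of a genotype. The interval code was tested on simulated data.

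The members, the gene lists and the rule for named genes were chosen with earlier results of these data known. The rule took both members everywhere, the border genes Pdx1, Ptf1a and Sox17, the endocrine genes Sst, Gcg and Neurog3, the extremes of each list, the nearest neighbours and the 5 most alike genes, of which 1 is not reported here; other genes named were chosen after their values were seen. All 6 libraries were used, 1 per group. The summed depth of kept RNA cells was 4106604 UMIs in the wild type and 4011819 in the enhancer-deleted library. Alternatives changed the cell filter, doublets, depth, scaling, pseudocount, resolution and cells used.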

Additional observations from a re-analysis of the deposited data

How the results depend on the processing

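Of 94 values recomputed under an alternative, 60 kept their sign and stayed close to the reported value. For RNA, close meant within the counting interval of the UMI ratio or of the difference of shares, which can be wide. The interval of the UMI ratio holds no pseudocount, whereas the log2 ratios set against it do. For ATAC, close meant a match to 2 decimals. A further 30 moved beyond these bounds and 4 changed sign. The Hhex RNA log2 ratios over all kept cells and in the progenitor and hepatobiliary clusters stayed above 0 under every alternative run. Where the setting itself does not show it (fewer cells, merged clusters), the cause was not tested. Thinning to 2000 UMIs gave 0.59 over all kept cells and 0.69 in the progenitor cluster, and it gave -1.79 for Prox1 there, from 26 and 4 UMIs. Median-of-ratios scaling gave 0.86 for Hhex over all cells. The progenitor and hepatobiliary clusters together, a set chosen after seeing the data, gave 1.79 for Hhex and -0.50 for Prox1 in place of all kept cells. A filter at 2000 genes redrew the clusters: it gave Prox1 -3.96 in the progenitor cluster, which then held 1 enhancer-deleted cell, and Hhex 0.45 in the hepatobiliary cluster. The Hhex ratio of that progenitor cluster, 2.02, rested on 33 and 2 UMIs. At resolution 0.3, and also with no cell filter, the progenitor and hepatobiliary cells merged, so both results share 1 value there. Hhex was then at 1.80 and 1.48, and the Prox1 ratio of the hepatobiliary cluster changed sign to -0.50 and -0.60. The Hhex co-detection difference was 6.91 points at 5000 UMIs and 53.5 points in the epithelial clusters alone, and the Prox1 difference was 0.56 points at 2000 UMIs.

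At E10.5, ATAC log2 ratios have no interval and small shifts count as moves: leaving out the 10% of nuclei at each end of depth gave -0.04 for Hhex and -0.16 for Prox1, averaging log values gave -0.020 and -0.028, cluster 0 alone (chosen after seeing the data) gave 0.071 and -0.094, and leaving out endocrine-like nuclei gave -0.087 for Prox1. At E13.5, log averaging gave -0.33 and -0.74 over all nuclei, leaving out endocrine-like nuclei -0.73 and -1.08, leaving out red-cell nuclei -0.11 and -0.40, and trimming -1.16 for Prox1. In the main epithelial cluster trimming gave -0.11 and -0.30, log averaging -0.037 and -0.15, and resolution 0.5 -0.19 and -0.32. No paired analysis was possible because each group has 1 library. RNA in shallow cells limits co-detection: a missing UMI does not show that a gene is off.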

Other observations

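Delta cells of the islet later depend on Hhex, and somatostatin RNA was rare at E10.5. A Sst UMI was in 11 wild-type and 15 enhancer-deleted cells, and 0 of the 11 and 1 of the 15 also had a Hhex UMI. The exact interval for 0 of 11 cells with a Hhex UMI reaches 28.5%. Among cells with a Gcg UMI (the glucagon gene), 82 of 130 in the wild type and 108 of 174 in the enhancer-deleted library also had a Prox1 UMI (63.1% and 62.1%), against 42.4% and 43.6% of the other, shallower cells. Thinned to 2000 UMIs the shares were 21.5% and 17.4% with Gcg and 23.2% and 18.2% without.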
